A study of Homo sapiens with 15 samples.

Results

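SOX2 and 6 further SOX transcription factors, SOX3, SOX4, SOX5, SOX6, SOX9 and SOX11, were followed through cardiac differentiation of H1 human embryonic stem cells. These 7 genes are among 19 SOX genes on the autosomes and the X chromosome and 60605 genes in the expression table. They were picked because of their levels in these same libraries, above all a high SOX2 level after cell passaging, so differences between arms are given as a description and no test was run on them. All 7 reached 1 FPKM (counted fragments scaled to exon length and to the library total) in at least 1 of the 15 libraries, the level required of the 21206 genes in the counts of changed genes.

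Bulk RNA-seq was carried out on wild-type H1 cells, a single established line, with 1 library per condition. All cells were taken to mesendoderm progenitors with the WNT activator CHIR99021 on Day 0, followed by insulin on Day 1. The 3 libraries from Day 0, Day 1 and Day 2 are common to every arm. From Day 2 the cells followed 1 of 3 arms, each sampled on Day 3, Day 5, Day 7 and Day 10. NP-ctrl cells were not passaged and received no inducer, and NP-IWP2 cells were not passaged and received the WNT secretion inhibitor IWP2. Passaged cells were detached on Day 2, split and plated again without IWP2. The paper also reports the ROCK inhibitor Y27632 in its later differentiation experiments. Effects of this inhibitor and of the lower density after splitting cannot be told apart from those of replating here. The comparison asks how levels differ between progenitors that stayed in static culture and progenitors that were replated. Every arm comparison on a given day draws on the same 3 libraries, so the comparisons with NP-ctrl are not independent of each other.

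SOX proteins bind DNA through an HMG box and are grouped by sequence. SOX2 and SOX3 belong to group B1; SOX2 partners with POU5F1 (OCT4) and NANOG to maintain pluripotency, and group B1 factors are also kept on in neural progenitors, while SOX2 persists in the foregut endoderm. SOX4 and SOX11 (group C) are broadly expressed in progenitor cells, including those of the cardiac outflow tract. SOX5 and SOX6 (group D) lack a transactivation domain of their own and act together with SOX9 (group E) on cartilage matrix genes such as COL2A1, and SOX9 also functions in heart valve precursors.

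The 250 bases before the transcription start are shown for SOX2 and SOX3, the pair whose levels moved most alike, and for SOX4, the member that was lower after passaging on all 4 days. The sequences are from RefSeq on GRCh38.p14, in the direction of transcription, at chr3:181711675-181711924 on the plus strand, chrX:140505070-140505319 on the minus strand and chr6:21593501-21593750 on the plus strand. Entries were found for 5 of the 7 members and none for SOX9 and SOX11. Capitals mark the CCAAT box (or ATTGG, its reverse complement), the octamer-like ATGCAAA bound by POU factors and the TATA-like TATAA, each searched on both strands.
SOX2: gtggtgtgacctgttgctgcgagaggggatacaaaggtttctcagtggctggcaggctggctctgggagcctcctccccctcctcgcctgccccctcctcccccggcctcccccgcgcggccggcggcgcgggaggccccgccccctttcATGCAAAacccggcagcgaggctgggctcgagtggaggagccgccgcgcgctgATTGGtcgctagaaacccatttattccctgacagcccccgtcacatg
SOX3: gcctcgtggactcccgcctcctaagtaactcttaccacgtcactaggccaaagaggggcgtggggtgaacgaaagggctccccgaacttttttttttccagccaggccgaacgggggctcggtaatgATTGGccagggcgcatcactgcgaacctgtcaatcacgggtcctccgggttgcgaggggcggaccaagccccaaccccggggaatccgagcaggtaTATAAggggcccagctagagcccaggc
SOX4: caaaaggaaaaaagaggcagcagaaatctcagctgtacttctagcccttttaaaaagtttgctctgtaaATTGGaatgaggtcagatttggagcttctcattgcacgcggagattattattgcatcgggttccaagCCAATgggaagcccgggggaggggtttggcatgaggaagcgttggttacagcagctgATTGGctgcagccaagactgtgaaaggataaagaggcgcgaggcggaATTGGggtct
The SOX2 stretch held 1 ATTGG and 1 ATGCAAA. The SOX3 stretch held 1 ATTGG and 1 TATAA, and the SOX4 stretch held 4 CCAAT or ATTGG boxes. A CCAAT box on either strand was present in 32.0% of all 34788 distinct stretches of the same length, ATGCAAA in 3.94% and TATAA in 19.0%. The SOX core ACAAT, present in 24.7% of all stretches, was not found in these windows of SOX2, SOX3 or SOX4. GC content was 68.8% for SOX2, 61.6% for SOX3 and 48.8% for SOX4, beside a median of 58.0% over all stretches.

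Total counts per library ranged from 13254723 to 20250115, with a median of 15269132, and mitochondrial genes took 1.53% to 10.3% of them. For SOX2, 3 counts, the value set here in place of a count of 0, corresponded to 0.0590 to 0.0901 FPKM. All 5 pluripotency markers were above 1 FPKM on Day 0, with POU5F1 at 625.29 FPKM, and all 5 cardiac muscle markers were above 1 FPKM in every arm from Day 5. Intervals given below are exact 95% intervals on counts; they cover counting error only and not the spread between cultures, which 1 library per condition cannot show.

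SOX2 fell in the days common to all arms. Its level was 97.13 FPKM on Day 0, 7.12 FPKM on Day 1 and 8.47 FPKM on Day 2, from 4141, 330 and 431 counts. SOX2 was the highest of the 19 SOX genes on Day 0 and ranked seventh on Days 1 and 2. The Day 1 level was 13.6-fold lower than on Day 0 (95% interval, 12.2 to 15.3) and the Day 2 level 11.5-fold lower (10.4 to 12.7). A change of at least 1 on the log2(FPKM + 1) scale is called a change here. Of all genes above the filter, 6.74% changed from Day 0 to Day 1 and 11.7% from Day 0 to Day 2; 2 of the 7 members, SOX2 and SOX3, changed in each interval, both downwards.

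After Day 2 the arms diverged. SOX2 in NP-ctrl cells was at 4.53, 0.51, 0.06 and 0.06 FPKM on Days 3, 5, 7 and 10, from 185, 20, 2 and 2 counts. NP-IWP2 cells had 10.24, 0.65, 0.12 and 0.08 FPKM on the same days, from 347, 23, 5 and 3 counts. In passaged cells SOX2 was at 12.07, 41.56, 16.94 and 4.89 FPKM, from 415, 1594, 638 and 187 counts. Both static arms ran down to a few counts by Day 7, whereas passaged cells reached their highest SOX2 level on Day 5 and still held 187 counts on Day 10.

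**Figure D1:**
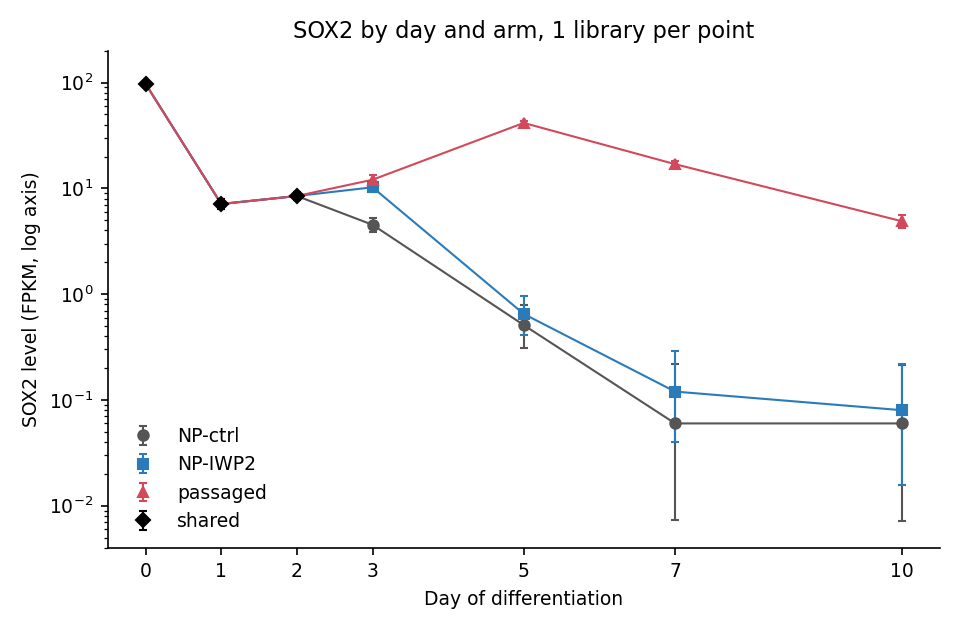
SOX2 level in FPKM (log axis) against day of differentiation, 1 library per point, with exact 95% counting intervals as bars. Passaged cells (red triangles) rise from 12.07 FPKM on Day 3 to 41.56 FPKM on Day 5, while NP-ctrl (grey circles) and NP-IWP2 (blue squares) fall below 1 FPKM from Day 5 on.

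Relative to NP-ctrl, SOX2 in passaged cells was 2.66-fold higher on Day 3 (2.24 to 3.19) and 81.8-fold higher on Day 5 (52.8 to 134). The ratio on Day 7 was 282 (77.8 to 2334) and on Day 10 it was 82.7 (22.6 to 688), both resting on 2 counts in the NP-ctrl library. On the log2(FPKM + 1) scale, which damps ratios of such low levels, passaged minus NP-ctrl was 1.24 on Day 3, then 4.82, 4.08 and 2.47. On this scale the difference was largest on Day 5, whereas by ratio it was largest on Day 7, with wide intervals that overlap.

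The static arms differed from each other on Day 3. NP-IWP2 cells had 2.26-fold more SOX2 than NP-ctrl cells on that day (1.88 to 2.71), and passaged cells had only 1.18-fold more than NP-IWP2 cells (1.02 to 1.36). By Day 5 the passaged arm stood apart, at 64.2-fold the NP-IWP2 level (42.6 to 102). NP-IWP2 and NP-ctrl were then within counting error of each other, at a ratio of 1.27 (0.669 to 2.45). On Days 7 and 10 passaged cells were at 138-fold (58.7 to 425) and 64.9-fold (21.9 to 317) the NP-IWP2 level, on 5 and 3 counts in NP-IWP2.

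Within the passaged arm, SOX2 was highest on Day 5. From Day 2 to Day 3 the ratio was 1.42 (1.24 to 1.64), which did not reach a log2 difference of 1. From Day 3 to Day 5 it rose 3.44-fold (3.09 to 3.84), while over the same days it fell 8.92-fold in NP-ctrl (5.61 to 14.9) and 15.8-fold in NP-IWP2 (10.4 to 25.3). It was 2.45-fold lower on Day 7 than on Day 5 (2.24 to 2.69) and 3.46-fold lower on Day 10 than on Day 7 (2.94 to 4.10). The Day 5 peak stayed below the Day 0 level of 97.13 FPKM.

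The SOX2 peak came while its pluripotency partners were falling. POU5F1 fell from 625.29 FPKM on Day 0 to 240.97 on Day 2, and in passaged cells to 48.03, 2.47, 0.02 and 0.00 FPKM on Days 3, 5, 7 and 10. NANOG, at 37.21 FPKM on Day 0, was at 0.19, 0.02, 0.00 and 0.00 FPKM in passaged cells. POU5F1 was lower in passaged than in NP-ctrl cells when SOX2 was higher, by 1.71-fold on Day 3 (1.62 to 1.81) and 2.53-fold on Day 5 (2.02 to 3.19).

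**Figure D2:**
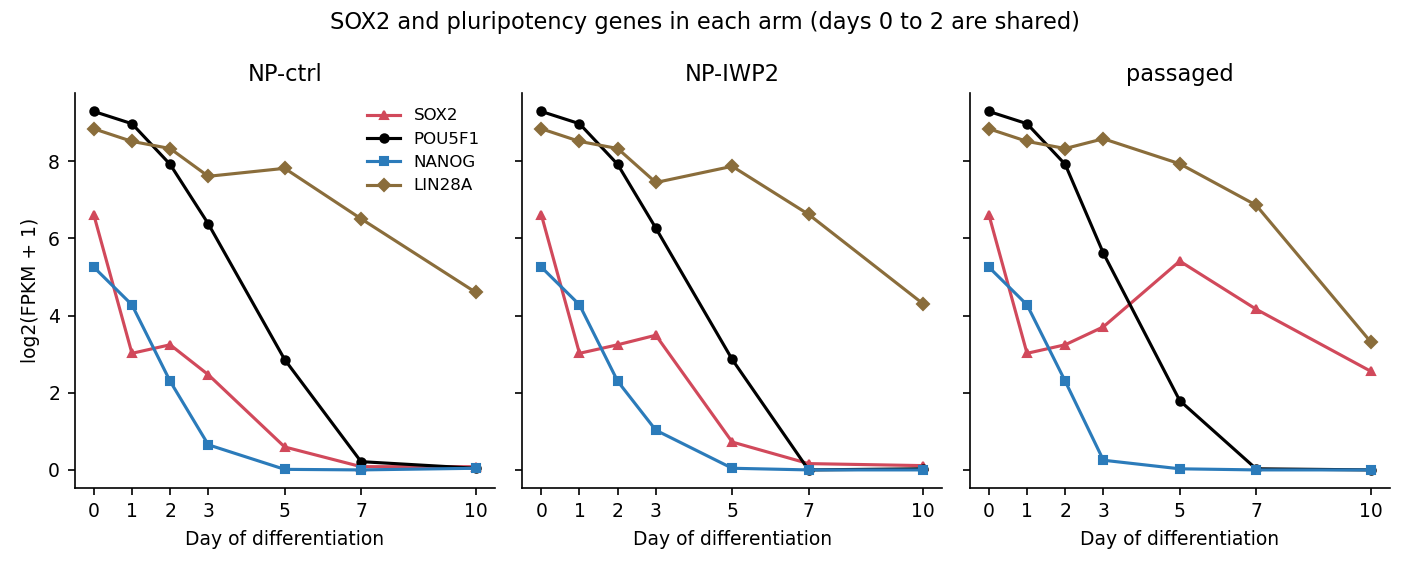
SOX2, POU5F1, NANOG and LIN28A on the log2(FPKM + 1) scale against day of differentiation, 1 panel per arm, 1 library per point; Days 0 to 2 are the same 3 libraries in each panel. POU5F1 and NANOG fall in every arm, and SOX2 rises between Day 3 and Day 5 in the passaged panel.

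Across 12 pluripotency partners and targets of SOX2, all above the filter, none was called higher in passaged than in NP-ctrl cells on Day 3 or Day 5. On these days 8.49% and 8.16% of all genes changed in either direction. On Day 3 LIN28A, higher at 382.28 against 194.27 FPKM, and TDGF1, lower at 8.84 against 18.32 FPKM, fell just short of the threshold. On Day 5, 2 were lower (POU5F1 and ZFP42), with a median log2 difference of -0.08 beside 0 for all genes. On Days 7 and 10 TDGF1, a NODAL co-receptor, was the 1 gene called higher, at 24.23 and 48.08 FPKM in passaged cells against 1.18 and 0.98 FPKM in NP-ctrl. In the same comparisons 1 gene was lower on Day 7 (ZFP42) and 5 were lower on Day 10 (LIN28A, DPPA4, UTF1, ZFP42 and DNMT3B), where 12.6% and 17.4% of all genes changed. Against NP-IWP2, LIN28A was called higher on Day 3, at 382.28 against 173.71 FPKM, and TDGF1 on Days 7 and 10, while 2, 3, 1 and 3 genes were lower on Days 3, 5, 7 and 10, where 8.7%, 7.51%, 6.69% and 10.1% of all genes changed. LIN28A, an RNA-binding protein of early progenitors, was thus kept longer than POU5F1 in all arms and was at 243.46 FPKM in passaged cells on Day 5.

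SOX2 lies within SOX2-OT, a long non-coding RNA gene on the same strand. SOX2 is a single exon at chr3:181711925-181714436 (hg38, plus strand), and SOX2-OT spans chr3:180989762-181836880, starting 722 kb before SOX2. In GENCODE release 44, whose gene starts and ends equal those of the table for all 7 members, no SOX2-OT exon overlaps the SOX2 exon. The exonic length of SOX2-OT was 31637 bases in the deposited data and 32836 bases in this release. The SOX2-OT exons used for counting thus differed from those described here. The nearest SOX2-OT exons end 559 bases before and begin 748 bases after SOX2. Reads of unspliced SOX2-OT across the SOX2 exon cannot be told apart from SOX2 reads, since both genes are transcribed from the same strand.

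**Figure D3:**
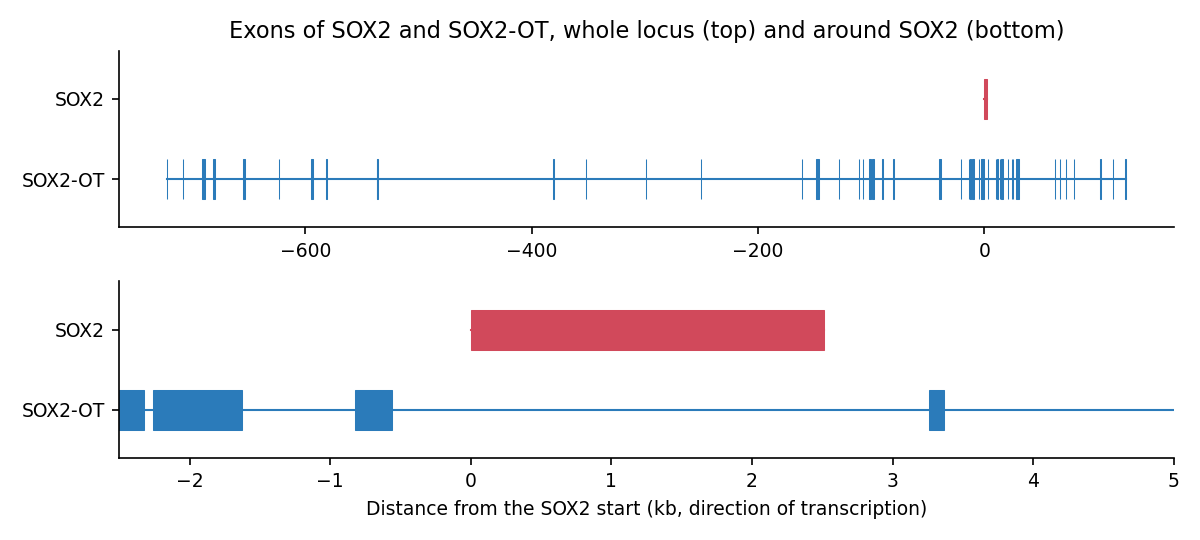
Exons of SOX2 (red) and SOX2-OT (blue) in GENCODE release 44 by distance in kb from the SOX2 start, for the whole SOX2-OT gene (top) and close to SOX2 (bottom); lines are introns. The SOX2 exon falls between SOX2-OT exons that are 559 bases upstream and 748 bases downstream.

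SOX2-OT itself was sparse. It had 78, 17 and 5 counts on Days 0, 1 and 2, then 2, 28, 8 and 16 counts in passaged cells on Days 3, 5, 7 and 10. NP-ctrl cells had 4, 9, 1 and 4 counts and NP-IWP2 cells 4, 1, 1 and 2. Its highest count after Day 0 was in the passaged Day 5 library, the library with the SOX2 peak. There SOX2-OT made up 1.73% of the counts of both genes (95% Wilson interval, 1.20 to 2.48), beside 1.85% on Day 0 (1.48 to 2.30). The share was 0.480% on passaged Day 3 (0.132 to 1.73), 1.24% on Day 7 (0.629 to 2.42) and 7.88% on Day 10 (4.91 to 12.4), and in the static arms it ran from 1.14% to 66.7%, the highest from 2 SOX2 and 4 SOX2-OT counts. Passaged cells had more SOX2-OT than NP-ctrl on Day 5, at a ratio of 3.19 (1.46 to 7.69) from 28 and 9 counts, against 81.8 for SOX2. Against NP-IWP2 on that day the SOX2-OT counts were 28 and 1, beside a ratio of 64.2 for SOX2. With the counts of both genes added, the passaged to NP-ctrl ratio was 57.4 on Day 5 and 190 on Day 7, and on Day 10 it dropped from 82.7 to 29.9.

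Genes near SOX2 differed less between arms. Of 35 genes starting within 1 Mb of SOX2, SOX2 included, 6 had more than 3 counts in any library and 4 passed the filter. FXR1, which encodes an RNA-binding protein and starts 844 kb upstream, was between 19.23 and 36.26 FPKM in all libraries, and its passaged to NP-ctrl ratio was 0.702 on Day 3 (0.676 to 0.730) and 1.01 on Day 5 (0.970 to 1.05). DNAJC19, for a mitochondrial co-chaperone, was between 5.81 and 12.33 FPKM, with a ratio of 1.22 on Day 5 (1.07 to 1.39). RNU6-4P, a small nuclear RNA copy, passed the filter on 2 counts, and LINC01206, a non-coding RNA gene that starts 240 kb downstream, had at most 9 counts.

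Among 7 members, SOX3 resembled SOX2 most. Pearson's r of log2(FPKM + 1) over the 15 libraries was 0.85 for SOX2 and SOX3, 0.76 for SOX2 and SOX11, 0.14 for SOX2 and SOX9, -0.56 for SOX4, -0.59 for SOX5 and -0.82 for SOX6. The points are a time course with shared starting days, and libraries of 1 arm follow each other, so these values are descriptive. Among protein-coding genes that reached 5 FPKM in at least 1 library, the 8 most like SOX2 were BID (0.90), PITPNC1 (0.88), PRR36 (0.87), SLC29A2 (0.86), SOX3 (0.85), HAT1 (0.85), RPRM (0.85) and PARP1 (0.85). BID, a pro-apoptotic BCL2 family protein, was at 9.22 FPKM on Day 0 and 6.27 FPKM in passaged cells on Day 5, and its lowest level was 2.49 FPKM in NP-ctrl on Day 7. With Spearman's correlation in place of Pearson's, 3 of the 8 (BID, PRR36 and SOX3) remained in the top 8.

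SOX3, the other B1 member at chrX:140502985-140505069, was also higher in passaged cells, with its peak on Day 3. Its levels were 27.50, 1.79 and 1.23 FPKM on Days 0, 1 and 2. NP-ctrl cells had 2.54, 0.31, 0.14 and 0.43 FPKM on Days 3, 5, 7 and 10, NP-IWP2 cells 2.81, 0.47, 0.09 and 0.00 FPKM, and passaged cells 10.34, 2.80, 1.41 and 1.13 FPKM. Passaged cells were highest on each of the 4 days. SOX3 rose 8.40-fold from Day 2 to passaged Day 3 (6.23 to 11.5) and then fell 3.70-fold from Day 3 to Day 5 (2.91 to 4.74), the interval in which SOX2 rose.

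On Day 3 SOX3 was 4.07-fold higher in passaged than in NP-ctrl cells (3.19 to 5.24) and 3.68-fold higher than in NP-IWP2 cells (2.86 to 4.78). On Day 5 the ratios were 9.13 (4.74 to 19.7) and 5.89 (3.33 to 11.2), from 89 counts in passaged cells against 10 and 14. NP-IWP2 cells had no SOX3 count on Day 10, so the passaged level, from 36 counts, was at least 12.5-fold higher with the NP-IWP2 library set at 3 counts. That value leaves out the counting error of the passaged library and uses a smaller limit for 0 counts than the 95% interval, which reaches 0.112 FPKM in NP-IWP2. Between the static arms SOX3 was within counting error on Days 3, 5 and 7. On Day 10 NP-ctrl had 12 SOX3 counts where NP-IWP2 had 0. The log2 difference of -0.52 (NP-IWP2 minus NP-ctrl) was short of the threshold, and passed it with pseudocount 0.1 (-2.41) and TPM (-1.51).

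The remaining B1 and B2 genes were low. SOX1, a neural B1 factor, had 24 counts in passaged cells on Day 3 where NP-ctrl had 5 and NP-IWP2 none, and at most 1 count in passaged cells later. SOX21, a B2 repressor that was at 9.25 FPKM on Day 0, was at 0.87 FPKM in passaged cells on Day 3 against 0.11 and 0.08 FPKM, a ratio of 8.32 to NP-ctrl (3.24 to 27.2). Neither reached a log2 difference of 1. SOX14, the other B2 gene, fell from 11.87 FPKM on Day 0 to 1.49 FPKM on Day 2 and was at most at 0.33 FPKM in the arms.

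SOX4 and SOX11, the group C members, parted after passaging. SOX4 (chr6:21593751-21598619) was at 43.23, 45.89 and 29.22 FPKM on Days 0 to 2. It was then at 53.99, 70.82, 66.77 and 59.32 FPKM in NP-ctrl, 42.72, 76.98, 65.95 and 58.94 FPKM in NP-IWP2 and 35.04, 56.00, 32.28 and 24.02 FPKM in passaged cells. Passaged cells were the lowest of the 3 arms on every day. The static arms had nearly equal SOX4 on Days 7 and 10, with ratios of 0.988 (0.949 to 1.03) and 0.994 (0.952 to 1.04).

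In passaged cells SOX4 was 2.07-fold lower than in NP-ctrl on Day 7 (1.97 to 2.18) and 2.47-fold lower on Day 10 (2.33 to 2.61). Against NP-IWP2 it was 2.04-fold (1.95 to 2.15) and 2.45-fold lower (2.32 to 2.59). The log2 differences of -1.03 and -1.01 on Day 7 lay just past the threshold, and with median-of-ratios scaling both missed it, at -0.87 and -0.92. SOX4 was the highest of all SOX genes in 10 of the 15 libraries, SOX12 in 4 and SOX2 in 1, that of Day 0.

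SOX11 (chr2:5692384-5701385) was higher, not lower, in passaged cells from Day 5 on. It was at 24.53, 18.01 and 18.10 FPKM on Days 0 to 2. It then measured 31.85, 11.33, 5.56 and 6.39 FPKM in NP-ctrl, 32.74, 9.87, 6.01 and 7.96 FPKM in NP-IWP2 and 20.24, 25.11, 10.11 and 11.28 FPKM in passaged cells. The static arms peaked on Day 3 and the passaged arm on Day 5.

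On Day 3 the passaged to NP-ctrl ratio of SOX11 was 0.636 (0.605 to 0.667), and on Day 5 it was 2.22 (2.09 to 2.35). The ratio to NP-IWP2 was 0.618 (0.588 to 0.650) on Day 3 and 2.54 (2.38 to 2.71) on Day 5. Higher levels in passaged cells remained on Days 7 and 10, with ratios to NP-ctrl of 1.82 (1.66 to 2.00) and 1.77 (1.62 to 1.93), neither of which reached a log2 difference of 1. SOX12, the third group C gene, was between 20.32 and 59.81 FPKM in all libraries, highest in passaged cells on Day 3.

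**Figure D4:**
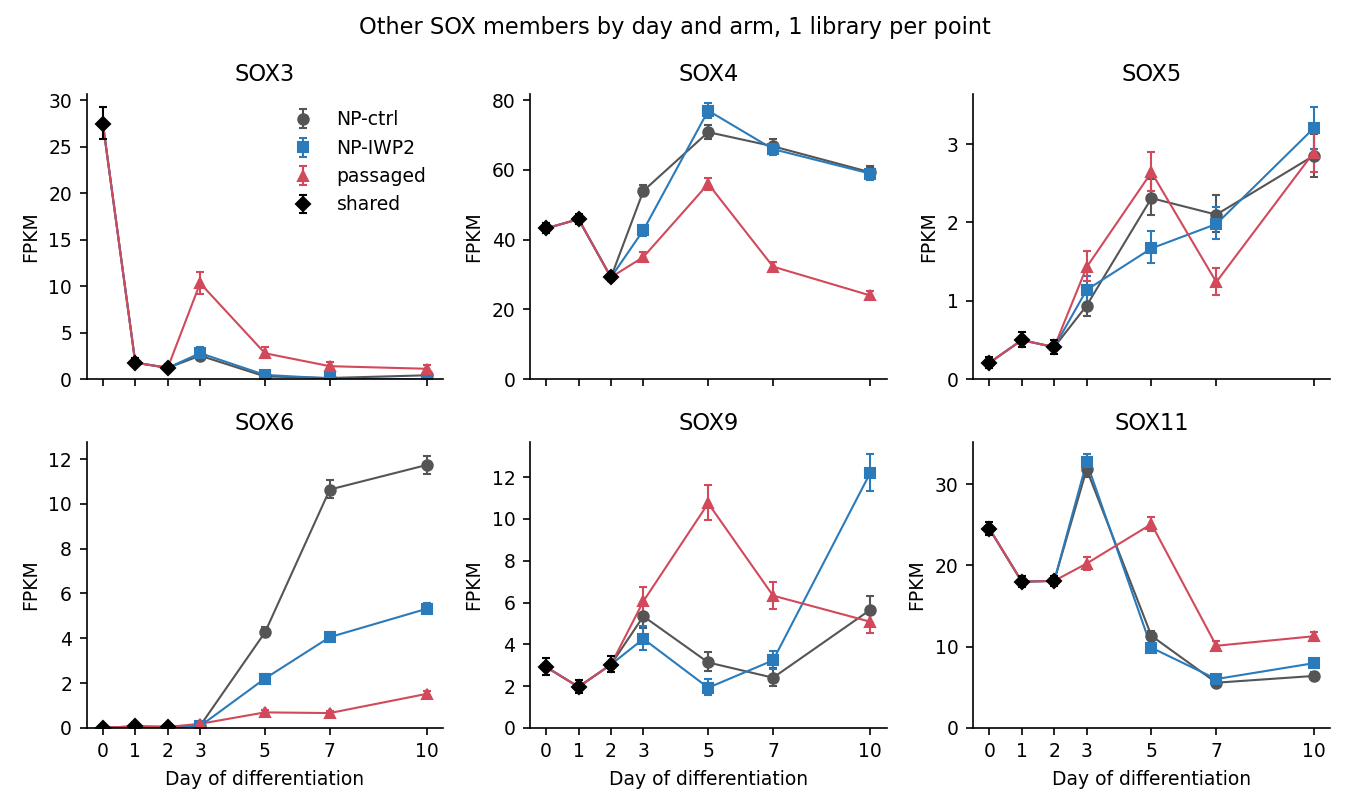
Level in FPKM (linear axes from 0, a different scale in each panel) of SOX3, SOX4, SOX5, SOX6, SOX9 and SOX11 against day of differentiation, 1 library per point, with exact 95% counting intervals as bars. SOX4 and SOX6 are lowest in passaged cells (red) on Days 7 and 10, and SOX9 and SOX11 in passaged cells are highest on Day 5.

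SOX6 (chr11:15966449-16739591) rose in the static arms and stayed lower in passaged cells. It started at 0.01, 0.06 and 0.04 FPKM on Days 0 to 2. NP-ctrl cells then had 0.09, 4.26, 10.64 and 11.74 FPKM on Days 3, 5, 7 and 10, NP-IWP2 cells 0.08, 2.20, 4.05 and 5.32 FPKM, and passaged cells 0.18, 0.69, 0.66 and 1.52 FPKM. From Day 5 the order was the same on each day, with NP-ctrl highest, NP-IWP2 between and passaged lowest. The passaged level was not flat, with ratios of 4.63 from Day 2 to Day 3 (2.59 to 8.70), 3.8 from Day 3 to Day 5 (2.78 to 5.28) and 2.30 from Day 7 to Day 10 (1.95 to 2.73). None of these steps reached a log2 difference of 1, and with pseudocount 0.1 all 3 did, at 1.0, 1.5 and 1.09.

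Passaged cells had 6.17-fold less SOX6 than NP-ctrl on Day 5 (5.33 to 7.16), 16.1-fold less on Day 7 (14.0 to 18.7) and 7.72-fold less on Day 10 (7.00 to 8.53). Against NP-IWP2, SOX6 was 3.19-fold lower on Day 5 (2.72 to 3.74), at a log2 difference of -0.92 that missed the threshold and passed it with pseudocount 0.1 (-1.54) and TPM (-1.39). It was 6.13-fold lower on Day 7 (5.28 to 7.15) and 3.50-fold lower on Day 10 (3.15 to 3.88). NP-IWP2 was itself below NP-ctrl, by 2.63-fold on Day 7 (2.46 to 2.81) and 2.21-fold on Day 10 (2.08 to 2.34). On Day 3, before the rise, passaged cells had more SOX6 than NP-ctrl, but from 50 and 30 counts.

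SOX5 (chr12:23529504-24562544), the closest relative of SOX6 among the members, was higher in every arm from Day 3 on than on Days 0 to 2. It was at 0.21, 0.50 and 0.41 FPKM on Days 0 to 2. It was then at 0.94, 2.31, 2.10 and 2.85 FPKM in NP-ctrl, 1.14, 1.67, 1.98 and 3.20 FPKM in NP-IWP2 and 1.43, 2.64, 1.24 and 2.89 FPKM in passaged cells. No arm comparison of SOX5 reached a log2 difference of 1. The ratio farthest from 1 was 0.591 (0.493 to 0.708), passaged to NP-ctrl on Day 7, and on Day 10 these arms were within counting error, at 1.02 (0.890 to 1.16).

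SOX9 (chr17:72121020-72126416) was higher in passaged cells in the middle of the time course. Its levels on Days 0 to 2 were 2.91, 1.96 and 3.03 FPKM. NP-ctrl cells then had 5.34, 3.13, 2.40 and 5.65 FPKM, NP-IWP2 cells 4.26, 1.92, 3.23 and 12.21 FPKM, and passaged cells 6.06, 10.75, 6.33 and 5.08 FPKM. Passaged cells were highest on Days 3, 5 and 7 and lowest on Day 10, with passaged and NP-ctrl within counting error on Days 3 and 10.

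On Day 5 SOX9 was 3.43-fold higher in passaged than in NP-ctrl cells (2.92 to 4.05) and 5.58-fold higher than in NP-IWP2 cells (4.54 to 6.92). On Day 7 the ratio to NP-ctrl was 2.64 (2.15 to 3.26). On Day 10 passaged and NP-ctrl had a ratio of 0.899 (0.764 to 1.06), and NP-IWP2 was above both, at 2.16-fold the NP-ctrl level (1.89 to 2.48). SOX9-AS1, a gene on the opposite strand that spans SOX9, had 3 to 34 counts per library; whether counting used strand is not given in the sources used here, so reads of the pair could not be separated.

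Genes that SOX9, SOX5 and SOX6 act on in cartilage include COL2A1, the type II collagen chain. COL2A1 was between 1.09 and 1.65 FPKM on Days 0 to 2. On Days 3, 5, 7 and 10 it measured 10.35, 63.33, 85.13 and 93.21 FPKM in NP-ctrl, 7.20, 94.07, 222.04 and 205.89 FPKM in NP-IWP2 and 123.64, 748.86, 1058.75 and 503.25 FPKM in passaged cells. Passaged cells had the highest COL2A1 on all 4 days, with a ratio to NP-ctrl of 11.8 on Day 5 (11.5 to 12.1). Within the passaged arm SOX9 was highest on Day 5 and COL2A1 on Day 7. On Day 3 SOX9 was at 6.06 FPKM in passaged and 5.34 FPKM in NP-ctrl cells, within counting error. Over all libraries SOX9 was highest in NP-IWP2 on Day 10, at 12.21 FPKM, where COL2A1 was below its passaged level. Whether COL2A1 follows SOX9 was not tested.

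Of the 10 cartilage genes fixed for this comparison, 9 passed the filter. Relative to NP-ctrl, 1, 3, 3 and 2 of them were higher in passaged cells on Days 3, 5, 7 and 10, and 1, 0, 0 and 1 were lower, where 8.49%, 8.16%, 12.6% and 17.4% of all genes changed in either direction. Their median log2 difference was 0.54, 0.18, 0.67 and -0.48, beside 0.03, 0, -0.07 and -0.09 for all genes. COL2A1 was among the higher genes on each day, and COL11A1, a type XI collagen chain, on Days 5 and 7, at 12.59 and 30.32 FPKM against 2.96 and 5.69 FPKM. The lower genes were HAPLN1, a link protein of the matrix, on Day 3 and COL9A3, a type IX collagen chain, on Day 10. HAPLN1 was at 42.57 FPKM in passaged cells on Day 3 against 128.03 FPKM in NP-ctrl and 58.85 FPKM in NP-IWP2, and in both static arms on that day it was above COL2A1. COL9A3 was at 8.28 FPKM on Day 10 against 19.17 FPKM in NP-ctrl. Against NP-IWP2, 1, 2, 3 and 2 genes were higher and 0, 0, 0 and 1 (HAPLN1) lower, where 8.7%, 7.51%, 6.69% and 10.1% of all genes changed. ACAN and MATN1, which define cartilage, stayed low, at most at 1.65 and 0.40 FPKM.

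Calls among the 7 members are listed by day, first for passaged against NP-ctrl cells. On Day 3, 2 members were higher (SOX2 and SOX3) and none was lower, where 8.49% of all genes changed in either direction. On Day 5, 4 were higher (SOX2, SOX3, SOX9 and SOX11) and SOX6 was lower, where 8.16% of all genes changed. On Day 7, 3 were higher (SOX2, SOX3 and SOX9) and 2 lower (SOX4 and SOX6), beside 12.6% of all genes. On Day 10, 1 was higher (SOX2) and 2 lower (SOX4 and SOX6), beside 17.4%. The members were chosen with these differences known, so nothing is read from their shares.

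Against NP-IWP2, 1 member was higher on Day 3 (SOX3), beside 8.7% of all genes. On Day 5 SOX2, SOX3, SOX9 and SOX11 were again the 4 higher members and none was called lower, beside 7.51%, with SOX6 at -0.92 just short of the threshold. On Day 7, SOX2 and SOX3 were higher and SOX4 and SOX6 lower, beside 6.69%. On Day 10, SOX2 and SOX3 were higher and SOX4, SOX6 and SOX9 lower, beside 10.1% of all genes; SOX9 fell short of the threshold with median-of-ratios scaling, at -0.97.

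The static arms were compared in the same way. NP-IWP2 was above NP-ctrl for SOX2 on Day 3, where 4.15% of all genes changed, and for no member on Day 5, where 2.97% changed. SOX6 was lower in NP-IWP2 on Day 7 and Day 10, beside 7.26% and 9.35% of all genes. SOX9 on Day 10 fell just short of the threshold, at a log2 difference of 0.99. With median-of-ratios scaling SOX2 on Day 3 and SOX6 on Day 10 also fell short, at 0.90 and -0.99.

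**Figure D5:**
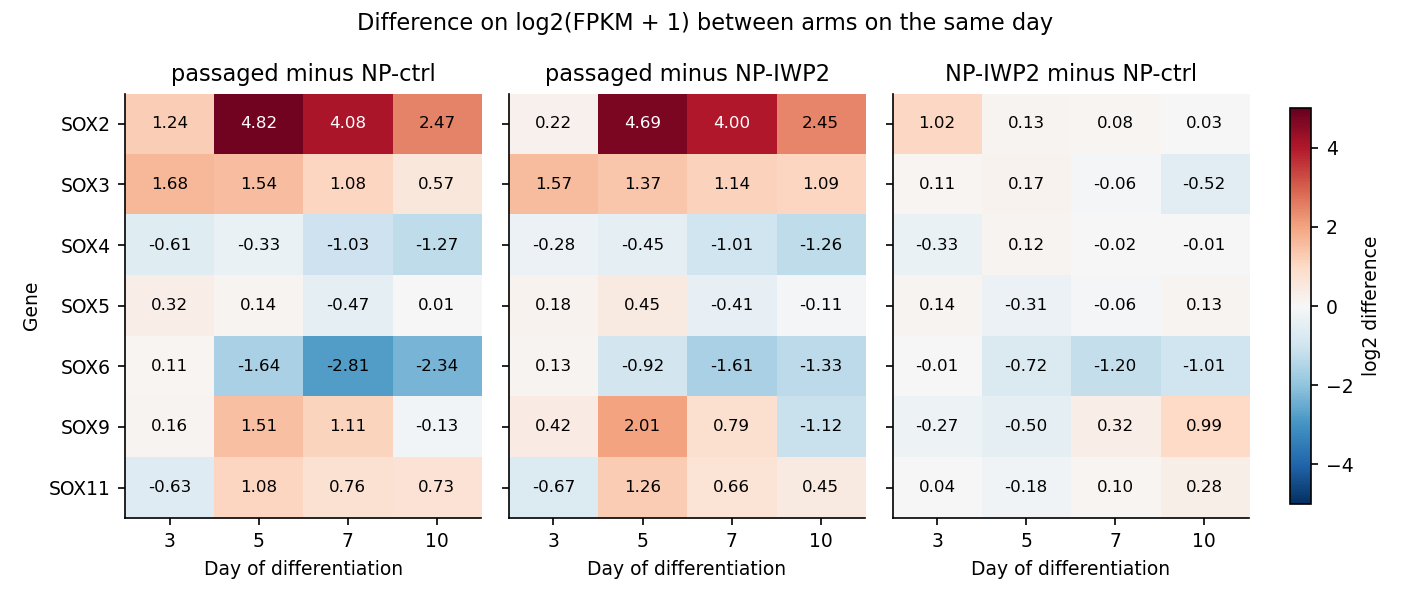
Difference on the log2(FPKM + 1) scale between arms on the same day for the 7 SOX members, 1 library per arm and day; red is higher and blue lower in the first-named arm. SOX2 and SOX6 show the largest differences between passaged and NP-ctrl cells, at 4.82 on Day 5 and -2.81 on Day 7.

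Along the passaged arm, the members moved at different times. From Day 2 to Day 3, SOX3 was the 1 member called, upwards, where 11.8% of all genes changed. From Day 3 to Day 5, SOX2 was higher and SOX3 lower, where 11.9% changed. From Day 5 to Day 7, SOX2 and SOX11 were lower, where 9.12% changed, and from Day 7 to Day 10, SOX2 was lower, where 7.17% changed.

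Among the 12 SOX genes outside this set, 4 (SOX7, SOX10, SOX17 and SOX18) were called between passaged and static arms on the same day. Each such call was lower in passaged cells. In these comparisons 6.69% to 17.4% of all genes changed in either direction, and nothing is read from the number of SOX genes called. The SOX7 call on Day 7 rested on 2 counts in passaged cells against 48 in NP-ctrl. SOX17, an endoderm and endothelial factor of group F, was at 12.57 FPKM on Day 2 and at 10.44, 0.08, 0.00 and 0.14 FPKM in passaged cells, on the 4 sampling days. NP-ctrl cells had 16.68, 11.40, 0.71 and 1.14 FPKM of it and NP-IWP2 cells 20.50, 6.06, 0.29 and 1.91 FPKM. It was lower on Day 5 against both static arms and on Day 10 against NP-IWP2. SOX7 and SOX18, the vascular group F factors, were lower on Days 5 and 7 against NP-ctrl for SOX7 and on Day 10 against NP-IWP2 for SOX18. SOX10, a neural crest factor of group E, was at 0.54 FPKM in passaged cells on Day 3 against 2.59 and 2.76 FPKM. SOX17 therefore ran opposite to SOX2 between Day 3 and Day 5 of the passaged arm, falling from 335 to 3 counts.

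Markers of cell types known to express SOX2 were compared in the same libraries. Fewer cells of a type and less RNA per cell cannot be told apart in bulk RNA. Of 8 neural markers, 3, 4, 2 and 2 were at or above 1 FPKM in passaged cells on Days 3, 5, 7 and 10, against 3, 4, 5 and 4 in NP-ctrl. Their summed level was 50.61 to 132.20 FPKM in passaged cells, 51.60 to 94.44 FPKM in NP-ctrl and 82.95 to 118.71 FPKM in NP-IWP2. Most of the sum was NES, an intermediate filament of many progenitors, at 40.47 to 130.40 FPKM in passaged cells. PAX6 and NEUROG2, which define neural progenitors, had no count on passaged Day 3. Each had 1 count on passaged Day 5, the day of the SOX2 peak, when SOX1 also had 1 count. On passaged Days 7 and 10 PAX6 had 1 and 34 counts, NEUROG2 0 and 4, and SOX1 0 on both. PAX6 on Day 10 had 1 count in NP-ctrl and 15 in NP-IWP2.

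Of 10 foregut and pharyngeal epithelium markers, 6 were at or above 1 FPKM in passaged cells on Day 5 against 4 in each static arm. PAX1 and PAX9, factors of the pharyngeal pouches, were highest there, at 1.02 and 1.24 FPKM. PAX1 had 91 counts in passaged cells on Day 5 and none in either static arm on that day. The summed level of the list was 65.27 FPKM, against 66.44 FPKM in NP-ctrl and 42.26 FPKM in NP-IWP2, and over the 4 days it ranged from 9.94 to 70.31 FPKM in passaged cells, 32.19 to 66.44 in NP-ctrl and 24.73 to 50.23 in NP-IWP2. EPCAM and CDH1, general epithelial genes that were at 73.45 and 73.61 FPKM on Day 0, gave 28.38 and 31.59 FPKM of the 65.27 FPKM. FOXA2, an endoderm factor of the list, was at 1.47 FPKM in passaged cells on Day 5, 7.19-fold below NP-ctrl (5.49 to 9.55). FOXA1 was at 1.08 FPKM there, against 2.6 FPKM in NP-ctrl and 2.31 FPKM in NP-IWP2. NKX2-1 went the other way, at 0.37 FPKM from 18 counts in passaged cells, with 0 counts in NP-ctrl and 1 in NP-IWP2. On Days 7 and 10 FOXA2 had 2 and 0 counts in passaged cells, and SOX2 had 638 and 187. In the same libraries TP63 had 29 and 23 counts, PAX9 12 and 2, FOXE1 12 and 1, PAX1 10 and 0 and SHH 7 and 1. FOXA1 had 3 and 2 counts there and NKX2-1 had 2 and 1. EPCAM was at 14.6 and 8.52 FPKM and CDH1 at 7.03 and 1.12 FPKM. The part of these cells in the SOX2 level was not tested.

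The 5 neural crest markers, among which SOX10 was lower in passaged cells on Day 3, summed to 11.86 FPKM in passaged cells on Day 5, of which TFAP2A, also an ectoderm factor, gave 11.03 FPKM. Their sum was 0.43 to 11.86 FPKM in passaged cells, 0.99 to 5.11 FPKM in NP-ctrl and 0.89 to 5.59 FPKM in NP-IWP2 over the 4 days. The 5 endothelial markers, SOX7 and SOX18 among them, summed to 12.58 to 120.65 FPKM in passaged cells, 97.18 to 134.99 FPKM in NP-ctrl and 93.53 to 107.93 FPKM in NP-IWP2. KDR, a VEGF receptor also found on mesoderm progenitors, made up most of each sum and was already at 18.02 FPKM on Day 0. On Day 10 the passaged sum was the highest of the 3 arms through KDR at 119.27 FPKM, while CDH5 and PECAM1, which define endothelium, were at 0.36 and 0.30 FPKM against 2.44 and 1.29 FPKM in NP-IWP2 and 1.62 and 0.81 FPKM in NP-ctrl. The 5 cardiac muscle markers summed to 16.75, 501.31, 2783.19 and 3392.40 FPKM in passaged cells on Days 3, 5, 7 and 10, and SOX2 declined from Day 5 while this sum rose. In NP-ctrl the cardiac sum was 13.66 to 600.98 FPKM and in NP-IWP2 8.60 to 2150.18 FPKM. The 3 cartilage markers summed to at most 2.71 FPKM in any library. The part of these cells in the SOX levels was not tested.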

How the data were processed

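The deposited table holds 15 RNA-seq libraries of H1 cells, 1 per condition, with 60605 genes. Per the submitters' processing notes, reads were trimmed with cutadapt 1.9.1, aligned to hg38 with HISAT2 2.0.1 and counted per gene with HTSeq 0.6.1; DESeq2 is also named, and its version, the annotation and the strand setting are not given in the sources used here. The labels name a long-read library kit, while the named tools are for short reads. The authors deposited raw counts per gene and, from them, FPKM, which equals counts divided by exon length and by the library total, as recomputed from the counts within 0.005. No column was without a sample, and no row named no gene.

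Samples were grouped by their titles. With 1 library per group no test was run and no p-value is given. Ratios are of library-scaled counts with exact 95% (Clopper-Pearson) intervals, and a gene at 0 counts was set at 3. Genes with at least 1 FPKM in 1 library (21206) entered counts of changed genes, a difference of at least 1 on log2(FPKM + 1) with pseudocount 1. Named genes were the 7 members, other SOX genes past 1 in an arm comparison, genes starting within 1 Mb of SOX2, and the 8 protein-coding genes most correlated with SOX2. The 2 genes most like each other member were computed with them. SOX1, SOX12, SOX14 and SOX21 are given for their groups, and BID, PAX1, PAX9, TFAP2A, FOXA2 and the members of other lists were singled out after their values were seen. Members and gene lists were chosen with earlier results of these data known. SRY was left out. Alternatives were median-of-ratios factors, TPM, a total without mitochondrial genes, SOX2-OT added to SOX2, pseudocount 0.1, threshold 2, no filter and Spearman's correlation. Calls of change and ratio intervals were tested on a simulated pair of libraries modelled on passaged and NP-ctrl cells on Day 5. The simulated counts carried counting error only, and changes larger than the threshold were set in well-expressed genes. Spread between cultures and ratios on few counts were therefore not covered. The other steps were not tested on simulated data. Python 3 with numpy, scipy and pandas was used.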

Additional observations from a re-analysis of the deposited data

Results flagged for a closer look

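SOX2 moved in opposite directions between Day 3 and Day 5 in different arms. On the log2(FPKM + 1) scale, Day 5 minus Day 3 was 1.70 in passaged cells, -1.87 in NP-ctrl cells and -2.77 in NP-IWP2 cells. SOX2 was the only one of the 7 members with a difference past 1 in opposite directions over the same days. With 1 library per arm and day the difference between arms was not tested, and SOX2 was among the genes chosen for its level in these libraries.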

How the results depend on the processing

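Leaving out a replicate and a paired analysis could not be done, since each group has 1 library. No paired analysis was possible because the groups have 1 replicate each. Of 60 alternative values of the SOX2 ratios, 58 stayed within the counting interval of the value given. SOX2 in passaged against NP-ctrl on Day 3 went to 1.70 (log2) with TPM, and passaged Day 7 against Day 5 to -1.14 with median-of-ratios factors. For the other members 36 of 210 values moved outside the interval and none with an interval apart from 1 changed direction. TPM shifts all genes of a comparison together, by -0.29 to 0.28, and median-of-ratios factors by -0.17 to 0.19. Directions that flipped were SOX4 in NP-IWP2 against NP-ctrl on Days 7 and 10, SOX5 in passaged against both static arms and SOX9 against NP-ctrl on Day 10, and SOX2 on Day 5, SOX6 on Day 3 and SOX11 on Day 3 in NP-IWP2 against NP-ctrl, all within counting error.

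The share of all genes changed ran from 2.97% to 17.4% over the comparisons, 12.4% to 32.9% with pseudocount 0.1, 9.12% to 31.8% with TPM, 0.222% to 3.78% at threshold 2, 2.86% to 17.2% with median-of-ratios factors and 1.04% to 6.09% of all genes without the filter. At threshold 2 the members called in passaged against NP-ctrl on Days 3, 5, 7 and 10 numbered 0, 1, 2 and 2. Against NP-IWP2 on the same days they numbered 0, 2, 1 and 1. In NP-IWP2 against NP-ctrl they numbered 0 on Days 3, 7 and 10, and 0 along the passaged arm after Day 3. Median-of-ratios factors left 0 members called in NP-IWP2 against NP-ctrl on Days 3 and 10. On Day 10 of that comparison pseudocount 0.1 gave 3, and TPM gave 3. From Day 2 to passaged Day 3 pseudocount 0.1 and TPM gave 3 each, and from passaged Day 7 to Day 10 pseudocount 0.1 gave 3. The cause was not tested. Of the 8 genes most like SOX2, 7 stayed with pseudocount 0.1 and 7 with median-of-ratios factors.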

Other observations

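The members other than SOX2 each had their own closest genes among protein-coding genes that reached 5 FPKM. By Pearson's r over the 15 libraries, SOX3 was most like BID (0.92) and RPS26 (0.91), SOX4 like SLC37A3 (0.89) and CALB2 (0.87), and SOX5 like CMTR2 (0.98) and REV3L (0.97). SOX6 was most like CLIP4 (0.98) and F2 (0.98), SOX9 like HEY1 (0.87), a NOTCH target, and PPP4R2 (0.82), and SOX11 like DEAF1 (0.94) and SIX4 (0.92). BID was the closest gene to both B1 members. These are descriptions over libraries that share their starting days.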
